A study of Mus musculus with 3 samples.

Results

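Among 28450 single-cell barcodes of mouse salivary gland organoids, the 2845 in which 6 genes took the highest share of the RNA molecules counted are described here: Vim (vimentin), Timp1, Lgals1, Sostdc1, Cav1 and Prkg2. A barcode entered with at least 2000 unique molecular identifiers (UMIs, each standing for 1 captured RNA molecule), at least 500 detected genes and at most 20% mitochondrial UMIs. Over the pooled libraries, the 10% of these barcodes with the highest summed share of the 6 genes were taken as members, and the other 25605 barcodes are called the other barcodes. The levels of the 6 genes chose the members, so these levels are a description and support nothing.

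The study grew organoids from submandibular salivary glands of C57BL/6 mice aged 8 to 12 weeks and compared irradiation with photons, irradiation with protons and no irradiation. The photon group received 7 Gy of photons on day 5 of culture, the proton group received 7 Gy of protons (plateau) on day 5, and the control group was not irradiated. In all 3 groups the organoids of 4 animals lay in Matrigel in a medium of EGF, FGF2, dexamethasone, the ROCK inhibitor Y27632 and conditioned media that supply R-spondin1 and Wnt3a, and were collected on day 11. Cells negative for propidium iodide were sorted, 45000 per sample, and loaded on a 10x Genomics 3′ chip. Each group is 1 library, the labels do not tie a barcode to an animal, and an organoid culture holds the epithelial cells that grow in this medium without the stroma of the gland. There is therefore no replicate and no test of a condition: intervals below cover counting error only, and library and treatment cannot be told apart.

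Vimentin is the intermediate filament protein of mesenchymal cells, and epithelial cells in culture, in wounds or in migration can also make it. Timp1 is a secreted inhibitor of matrix metalloproteinases, Lgals1 is the sugar-binding lectin galectin-1, and Cav1 is the main coat protein of caveolae. Sostdc1 is a secreted antagonist of bone morphogenetic proteins that also modulates Wnt signalling, and Prkg2 is a membrane-bound protein kinase driven by cyclic GMP. Salivary ducts are built of basal cells with keratins 5 and 14 and luminal cells with keratins 7, 8 and 18.

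The promoters of Timp1 and Cav1 are shown because these are 2 of the 6 genes whose levels chose the members. The sequences, 250 bases upstream of the start site on the plus strand, are from RefSeq (GRCm38.p6), and capitals mark matches to a TEAD motif (GGAATG) or a GC box (GGGCGG), each searched on both strands.
Timp1 chrX:20869916-20870165: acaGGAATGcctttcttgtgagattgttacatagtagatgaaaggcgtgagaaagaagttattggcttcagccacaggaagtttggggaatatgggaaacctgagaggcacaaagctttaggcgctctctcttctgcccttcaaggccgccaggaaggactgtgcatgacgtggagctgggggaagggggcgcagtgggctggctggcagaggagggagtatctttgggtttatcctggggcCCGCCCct
Cav1 chr6:17306085-17306334: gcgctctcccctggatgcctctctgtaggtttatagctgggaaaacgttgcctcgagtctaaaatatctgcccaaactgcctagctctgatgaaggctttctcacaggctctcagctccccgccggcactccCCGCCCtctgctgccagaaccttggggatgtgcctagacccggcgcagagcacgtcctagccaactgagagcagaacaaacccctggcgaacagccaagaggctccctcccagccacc
The Timp1 window held 1 TEAD match and 1 GC box, and the Cav1 window held 1 GC box and no TEAD match. An AP-1 motif (TGANTCA) was in neither. A window of Vim and a second one of Cav1, both inside the annotated span of their gene, held none of the 3 motifs and are not printed. Of 32851 RefSeq mouse promoter windows of the same length, 12.6% held the TEAD letters, 32.7% the GC box and 6.75% the AP-1 letters, so each of these matches is common. The matches overlap each other nowhere in these windows and are a description of letters, not of binding. In the mm10 annotation (GENCODE M21) Vim spans chr2:13573927-13582826 and Timp1 chrX:20870166-20874735. Lgals1 lies at chr15:78926725-78930465, Sostdc1 at chr12:36314139-36318452, Cav1 at chr6:17306335-17341452 and Prkg2 at chr5:98929773-99037351, and all 6 are protein-coding.

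The deposited matrices held 15926 barcodes and 47514102 UMIs for photon, 14525 and 37116107 for proton, and 14266 and 40166701 for control. The depth and quality filters kept 10891, 7939 and 9620 barcodes of the photon, proton and control libraries. Members had a median of 3654, 3190 and 3989 UMIs in the photon, proton and control libraries, and the other barcodes 3335, 3103 and 3190 UMIs. The libraries share 55 to 61 barcode sequences per pair, and members share 1 between photon and control, 1 between proton and photon and none between proton and control. A doublet caller (Scrublet) marked none of the barcodes, which over so many cells means that it did not work, so no doublets were removed.

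Members were unevenly spread over the libraries. They made up 15.9% of the photon barcodes (1737 barcodes, exact 95% binomial interval 15.3% to 16.7%), 9.79% of the proton barcodes (777, 9.14% to 10.5%) and 3.44% of the control barcodes (331, 3.09% to 3.82%). Photon barcodes were 61.1% of all members, proton barcodes 27.3% and control barcodes 11.6%. The 3 intervals do not overlap, but they cover counting within 1 library each and not the spread between cultures.

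**Figure D1:**
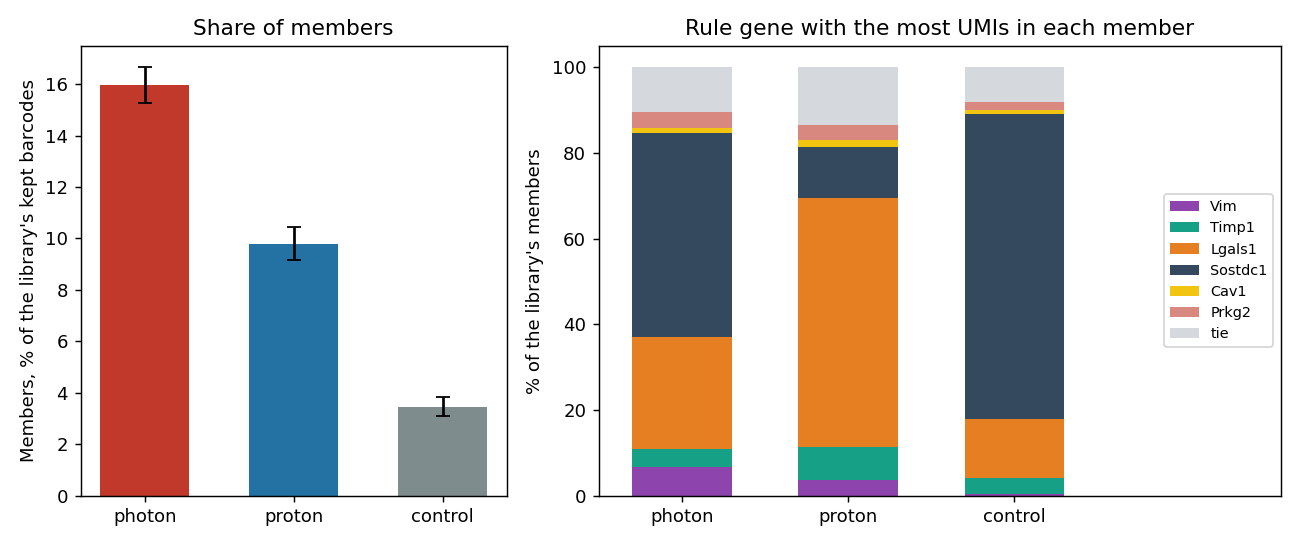
Left, members as a percentage of the kept barcodes of the photon, proton and control libraries, with bars for the exact 95% binomial interval: 15.9%, 9.79% and 3.44%. Right, the percentage of each library's members in which each of the 6 genes holds the most UMIs: Sostdc1 leads in 71.3% of control members and Lgals1 in 58.2% of proton members.

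Membership rests on few molecules per cell. A member held a median of 8 UMIs of the 6 genes in the photon library, 7 in the proton library and 9 in the control library, with 4 as the lowest and 43 as the highest number. The other barcodes held a median of 1 in the photon and proton libraries and 0 in the control library, and 41.8% of all kept barcodes held none. The last barcode inside the cut had 0.154024% of its UMIs in the 6 genes (8 of 5194 UMIs) and the first outside had 0.153988% (5 of 3247 UMIs). Within 10% of the cut lay 493 members and 655 other barcodes, and 426 members reached at least 2 times the cut. A median of 3 of the 6 genes was detected in a member and 1 in another barcode, and 313 members owed their score to 1 gene alone. Each UMI of a barcode was also assigned at random, with equal odds, to 1 of 2 parts. Of the barcodes in the highest 10% on the first part, 44.7% were again in the highest 10% on the second. The members are therefore the upper end of a continuous score, with an edge that counting error blurs.

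Vim averaged 258, 211 and 73.1 counts per 1000000 UMIs (CPM) in photon, proton and control members, against 32.3, 23.6 and 7.14 CPM in the other barcodes. Vim was thus lower in control members than in both kinds of irradiated members, and lowest in the other control barcodes. After each barcode was thinned to 2000 UMIs, 25.7% of photon, 25.7% of proton and 10.6% of control members held a Vim UMI, against 4.63%, 3.50% and 1.01% of the other barcodes. No kept barcode was shallower than that number, and without thinning 36.6%, 37.2% and 17.2% of photon, proton and control members held one, against 8.16%, 6.30% and 1.95% of the other barcodes. In barcodes rich in squamous marker genes, the thinned share with a Vim UMI was 0.829%, 1.48% and 0.236% in the photon, proton and control libraries, at median depths of 2971, 2941 and 3098 UMIs. How much of that share is free RNA and how much RNA of these cells was not tested. Most members of every library therefore carried no detected vimentin molecule at this depth, so that "vimentin-rich" describes the group and not each cell.

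Timp1 averaged 194, 278 and 180 CPM in photon, proton and control members, against 59.9, 60.4 and 25.7 CPM in the other barcodes. Lgals1 averaged 665, 1150 and 396 CPM in photon, proton and control members, against 151, 178 and 42.4 CPM in the other barcodes, so its highest level was in the proton members. Sostdc1 averaged 910, 280 and 1359 CPM in photon, proton and control members, against 144, 64.4 and 79.6 CPM in the other barcodes. Among members, which were chosen on the sum of these genes, the order of the libraries for Sostdc1 was the reverse of that for Lgals1. In the other barcodes and over all kept barcodes it was not, since Sostdc1 was highest in photon. Over all kept barcodes Sostdc1 was at 272, 85.9 and 130 CPM in photon, proton and control, and Lgals1 at 237, 275 and 56.4 CPM. Cav1 averaged 119, 142 and 120 CPM in photon, proton and control members, against 29.96, 33.1 and 21.6 CPM in the other barcodes. Prkg2 averaged 225, 194 and 197 CPM in photon, proton and control members, against 66.4, 55.4 and 36.7 CPM in the other barcodes. Cav1 and Prkg2 differed little between the members of the 3 libraries, whereas Vim, Lgals1 and Sostdc1 each differed more than 2-fold between the lowest and the highest library.

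**Figure D2:**
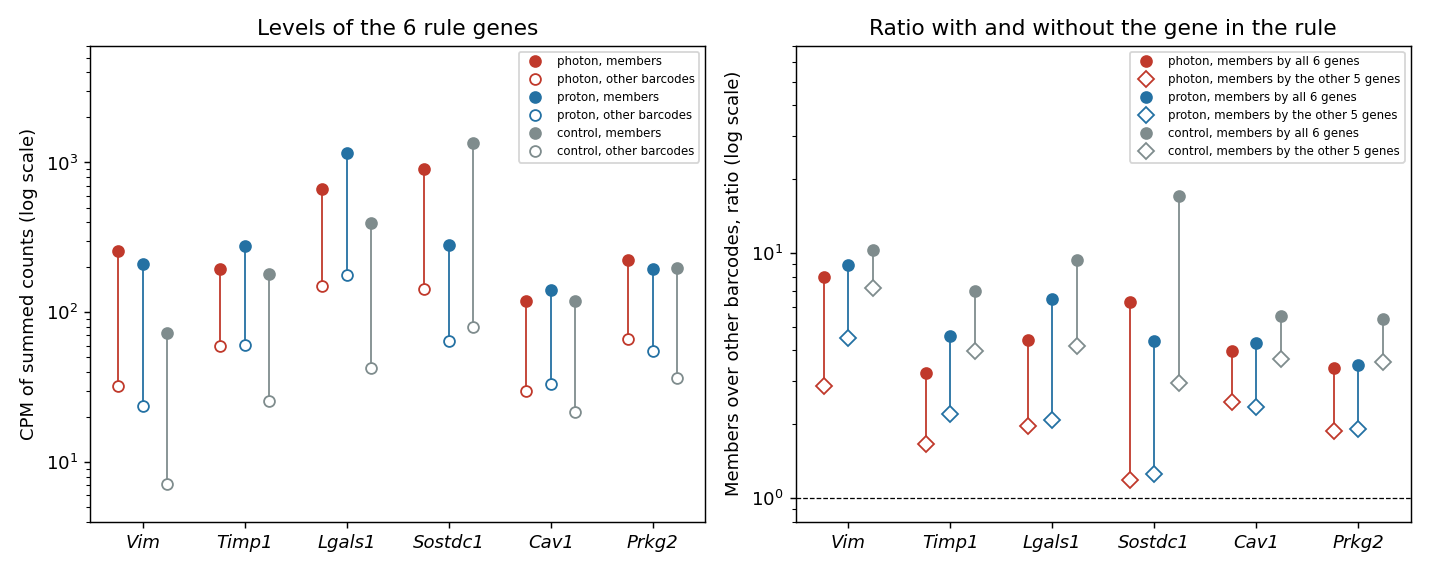
Left, CPM of summed counts (log scale) of the 6 genes in members (filled) and the other barcodes (open) of the photon, proton and control libraries. Right, the ratio of members over the other barcodes (log scale) when all 6 genes choose the members (filled) and when the 5 genes other than the one plotted choose them (open diamonds): Sostdc1 drops to 1.18 in photon and 1.25 in proton, Vim to 2.87 and 4.497.

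To see how far the 6 genes go together, the highest 10% of barcodes were also chosen with 1 gene left out of the score, and that gene was then measured. Vim stayed higher in barcodes chosen by the other 5 genes, by 2.87-fold in photon, 4.497-fold in proton and 7.18-fold in control (95% counting interval in photon 2.66 to 3.10). Cav1 stayed higher by 2.46-fold, 2.36-fold and 3.68-fold in photon, proton and control, and Prkg2 by 1.88-fold, 1.90-fold and 3.59-fold. Timp1 stayed higher by 1.67-fold, 2.20-fold and 3.98-fold, and Lgals1 by 1.96-fold, 2.08-fold and 4.18-fold. Sostdc1 stood apart, with 1.18-fold in photon and 1.25-fold in proton, but 2.94-fold in control. Barcodes with at least 2 Vim UMIs held less Sostdc1 than barcodes with none in both irradiated libraries, at 0.82 times in photon and 0.75 times in proton, and more in control, at 2.44 times. The same barcodes held more Lgals1 in all 3 libraries, at 3.19, 3.25 and 9.32 times in photon, proton and control. Barcodes with at least 2 UMIs of a gene were also deeper than barcodes with none, with medians of 4605 and 3248 UMIs for Vim in photon.

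The 6-gene score therefore joined barcodes that reached it in different ways. Sostdc1 held the most UMIs of the 6 genes in 47.7% of photon, 11.8% of proton and 71.3% of control members. Lgals1 did so in 26.0% of photon, 58.2% of proton and 13.6% of control members. Vim led in 6.74% of photon members, 3.73% of proton members and 1 of 331 control members, and Timp1 in 4.203%, 7.59% and 3.93%. Over all libraries 1156 members were led by Sostdc1, 949 by Lgals1, 147 by Vim and 145 by Timp1, and 311 had a tie. The label's leading names, Vim and Timp1, were thus the leading gene in few of the cells.

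Members led by Lgals1 and members led by Sostdc1 differed in their keratins in each library. Of 5457 genes measured at a mean of at least 25 CPM, 57 (1.04%) were at least 1.5-fold higher and 70 (1.28%) at least 1.5-fold lower in Lgals1-led than in Sostdc1-led members in all 3 libraries. Krt8, the type II keratin of simple epithelia, was at 683, 533 and 489 CPM in Lgals1-led members of the photon, proton and control libraries, against 202, 193 and 156 CPM in Sostdc1-led members. Its partner Krt18 was at 1521, 920 and 1484 CPM in Lgals1-led members, against 595, 390 and 533 CPM in Sostdc1-led members. Of 7 luminal duct markers measured, 4 were higher in Lgals1-led members in all 3 libraries and none was lower. The tight junction genes Cldn7 and Cldn3 were among them, with Cldn7 at 177, 102 and 199 CPM in Lgals1-led members, against 73.7, 30.5 and 85.1 CPM in Sostdc1-led members. For members as a whole against the other barcodes, 2 of 7 luminal duct markers were lower in all 3 libraries and none was higher in all 3.

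The genes furthest above in the Lgals1-led members were Basp1, a membrane-bound signalling protein (64.8, 30.3 and 69.2 CPM, against 6.14, 3.39 and 5.26 CPM in Sostdc1-led members), and Fn1, the matrix protein fibronectin (74.3, 182 and 43.3 CPM, against 9.21, 6.78 and 8.41 CPM). The Sostdc1-led proton members are only 92 barcodes. There the counting interval of the ratio was wide, 1.54 to 360 for Basp1 and 7.37 to 223 for Fn1. Tm4sf1, a surface protein of the tetraspanin-like kind, was at 201, 129 and 138 CPM in Lgals1-led members, against 44.0, 23.7 and 34.7 CPM in Sostdc1-led members. Hmga2, a chromatin protein of growing cells, was at 248, 402 and 316 CPM, against 130, 142 and 141 CPM. Ly6d, a surface protein of stratified epithelia, ran the other way, at 418, 314 and 731 CPM in Lgals1-led members, against 1166, 773 and 2183 CPM in Sostdc1-led members. Wfdc18, a secreted protease inhibitor-like protein, was at 388, 362 and 338 CPM, against 1946, 1126 and 950 CPM, and the neurotrophin receptor gene Ntrk3 at 47.9, 123 and 73.6 CPM, against 177, 421 and 225 CPM. Lcn2, which codes for the iron-carrier binding protein lipocalin-2, was at 378, 460 and 281 CPM, against 823, 1004 and 634 CPM. Krt15, a keratin of basal and progenitor cells, was at 293, 101 and 437 CPM in Lgals1-led members, against 624, 254 and 588 CPM in Sostdc1-led members, and missed the 1.5-fold limit in control. Of 6 basal duct markers measured, only Trp63 passed that limit in all 3 libraries, at 85.8, 124 and 95.2 CPM, against 145, 214 and 166 CPM. The basal keratin gene Krt17 was higher in Lgals1-led members in photon (3082 against 2726 CPM) and control (2917 against 2552 CPM). Both groups were chosen from values of these same cells, so the contrast is a description, and the Lgals1-led control members are only 45 barcodes.

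**Figure D3:**
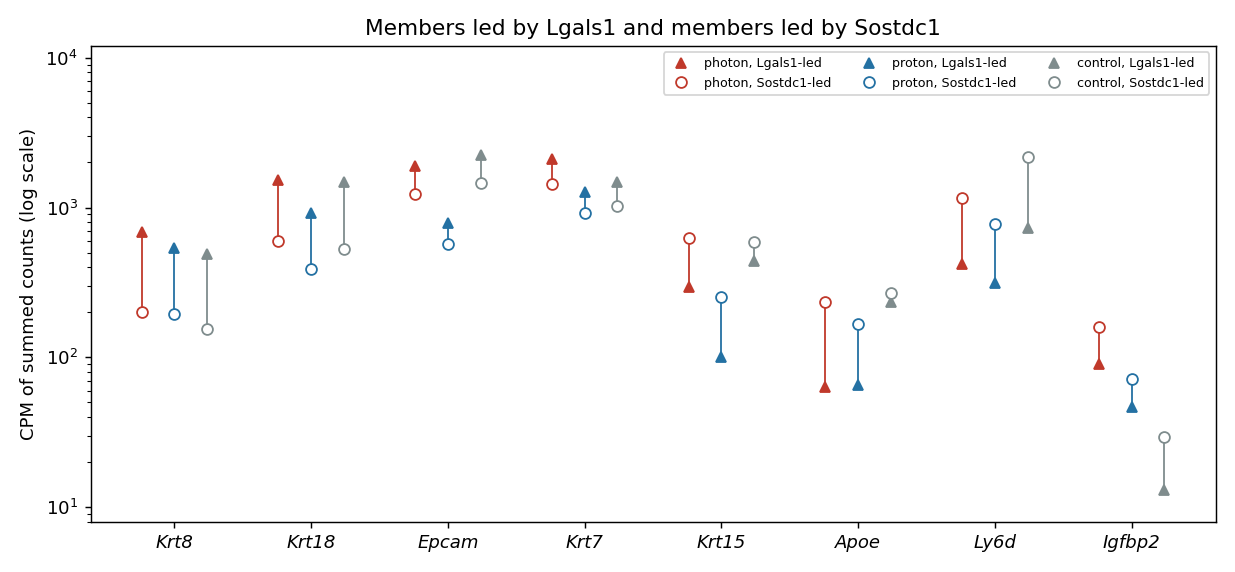
CPM of summed counts (log scale) of 8 genes in members led by Lgals1 (triangles) and by Sostdc1 (open circles) in the photon, proton and control libraries. Krt8, Krt18, Epcam and Krt7 are higher in Lgals1-led members and Krt15, Apoe, Ly6d and Igfbp2 are lower, in all 3 libraries.

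The label calls the cells epithelial, and epithelial markers were high in them while markers of other tissues were at or near 0. Epcam, the epithelial adhesion molecule, was at 1610, 789 and 1658 CPM in photon, proton and control members, against 1441, 718 and 1259 CPM in the other barcodes. The 8 epithelial markers summed to 8011, 4703 and 7381 CPM in photon, proton and control members, against 7051, 4042 and 5577 CPM. The defining fibroblast genes Col1a2, Lum and Pdgfra had no count in the members of any library, and the 6 fibroblast markers summed to at most 1.31 CPM there. Endothelial, pericyte, immune, glial and erythroid markers summed to at most 3.58 CPM in the members of each library, and the pan-leukocyte gene Ptprc had no count in any member. Acta2, the smooth muscle actin of myoepithelial cells, was at 13.3 and 9.18 CPM in photon and proton members with no count in control members, against 1.26, 2.38 and 2.15 CPM in the other barcodes, while the 6 myoepithelial markers together reached 16.1, 13.4 and 2.87 CPM in photon, proton and control members. Of the transcription factors of epithelial-mesenchymal transition, Snai2 was at 71.9, 45.9 and 71.7 CPM in photon, proton and control members, against 64.9, 48.3 and 102 CPM, and Snai1, Zeb1, Zeb2 and Twist1 stayed at or below 4.24 CPM in the members of each library. The wider list of 13 transition factors and mesenchymal genes was higher in members as a sum. It reached 562, 595 and 523 CPM in photon, proton and control members, against 356, 342 and 361 CPM in the other barcodes. Of its 5 measured genes, 2 were higher in members in all 3 libraries and none was lower in all 3.

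To place the members among the other cells, all kept barcodes were clustered on variable genes with the 6 rule genes left out. The members formed no cluster of their own. Cluster 1, with Clca3a2 and Klra4 among its leading genes not in the rule, held 31.9% of them. Cluster 6, led by the histone gene Hist1h1b and by Top2a, held 19.1%, cluster 4, led by Krtdap, Igfbp2 and Apoe, 19.1%, and cluster 3, led by Lars2 and Adgrl3, 12.6%. Cluster 7, led by the mitotic genes Cdc20 and Cdkn3, held 9.88%. The members of the 3 libraries lay in different clusters: cluster 1 held 39.9% of photon, 5.41% of proton and 52.3% of control members, and cluster 3 held 0.691%, 44.3% and 0.906%. The comparisons of members between libraries given further on therefore set different mixes of clusters against each other. Clusters 0, 2 and 5 held 6553, 4287 and 2169 barcodes, of which 1.05%, 0.397% and 0% were members. A count of 0 of 2169 in cluster 5 allows a share of up to 0.138% by a limit of 3 counts. The 3 clusters were led by the acute-phase gene Orm3 and Aox3 in cluster 0, by the secretory genes Crisp3 and Klk1b11 in cluster 2, and by Psca and the cornified envelope gene Sprr2f in cluster 5. Of the members led by Sostdc1, 36.7% lay in cluster 1 and 30.7% in cluster 4, and of those led by Lgals1, 20.8% lay in cluster 1 and 14.6% in cluster 4. Clusters 8 and 10 held 7.59% and 2.53% of the members led by Lgals1 and none of those led by Sostdc1. Fn1 and Basp1 are among the leading genes of cluster 8, and Basp1 also of cluster 10. The part of these clusters in the contrast of the 2 groups was not tested. The small cluster 10 of 51 barcodes, led by Msln, Arhgdig and Cryab beside Lgals1, was 51.0% members.

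Within clusters 1, 4 and 6, the share of members differed less between photon and control, as a ratio, than over the whole libraries. In cluster 1, members were 17.9% of photon, 14.1% of proton and 19.4% of control barcodes. In cluster 6 they were 30.4% of photon, 16.2% of proton and 31.7% of control barcodes. In cluster 4 they were 31.5% of photon, 12.7% of proton and 18.2% of control barcodes, and in cluster 2 they were 0.411%, 0.444% and 0%, where 0 of 281 control barcodes allows a share of up to 1.07% by a limit of 3 counts (exact upper bound 1.30%). Averaged with equal weight over these 4 clusters, the ones with at least 100 barcodes in every library, members were 20.0% of photon, 10.9% of proton and 17.3% of control barcodes. On that average the proton library was lowest, whereas the control library was lowest over all barcodes. In 3 clusters with fewer control barcodes the proton share was not below the photon share: members were 9.36% of proton and 4.30% of photon barcodes in cluster 3, 26.7% and 25.8% in cluster 7, and 17.2% and 14.2% in cluster 8. Of the 9620 control barcodes, 6180 lay in cluster 0 and 1787 in cluster 5, where members were 1.00% and 0% of the control barcodes. Clusters may themselves follow libraries: cluster 3 was 3676 proton barcodes of 4017 and cluster 0 was 6180 control barcodes of 6553.

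**Figure D4:**
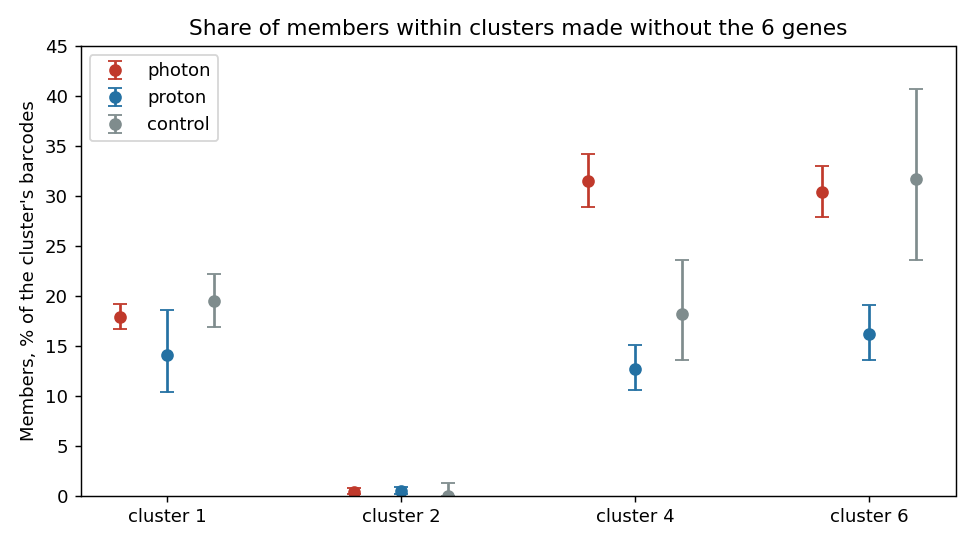
Members as a percentage of the barcodes of clusters 1, 2, 4 and 6 in the photon, proton and control libraries, with the exact 95% binomial interval. In clusters 1 and 6 the photon and control intervals overlap, and in cluster 4 the photon share of 31.5% lies above the proton share of 12.7% and the control share of 18.2%.

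Beyond the 6 genes, members stood high in genes of the cell cycle and of cholesterol synthesis in every library, whereas acute-phase and secretory genes went both ways. Of 5687 genes at a mean of at least 25 CPM, 127 (2.23%) were at least 1.5-fold higher and 311 (5.47%) at least 1.5-fold lower in members than in the other barcodes in all 3 libraries. With scaling by the median of gene ratios these counts became 192 and 226, because the median gene was lower in members, by 0.10, 0.13 and 0.08 on the log2 scale in photon, proton and control. Members were chosen from values of these cells, so nothing is read from the counts. The 25 CPM limit is a mean over members and the other barcodes, so a gene can pass it through its level in members alone.

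The highest ratios belonged to Emp3, Igfbp2, Klra4, Meg3 and S100a4. Emp3, a membrane protein of the PMP22 family, was at 64.9, 56.5 and 73.1 CPM in photon, proton and control members, against 15.9, 11.7 and 5.81 CPM in the other barcodes. Its lowest ratio was 4.09 in photon (3.597 to 4.64). Igfbp2, a secreted binding protein of insulin-like growth factors, was at 104, 44.1 and 23.6 CPM in members, against 24.98, 13.02 and 3.78 CPM. S100a4, a calcium-binding protein linked to motility, was at 49.6, 28.2 and 93.9 CPM in members, against 18.0, 10.9 and 10.8 CPM. Igfbp7, another secreted insulin-like growth factor binding protein, was at 453, 311 and 631 CPM in members, against 191, 129 and 162 CPM, with ratios of 2.37, 2.41 and 3.90. Lmo1, a transcriptional cofactor, and Wnt10a, a Wnt ligand, were also among the 12 highest, with Wnt10a at 95.3, 71.7 and 131 CPM in members and 45.0, 34.1 and 45.5 CPM in the other barcodes. The calcium-activated potassium channel gene Kcnn4, the sterol-regulated gene Tmem97 and the kinetochore gene Spc24 completed the named genes of this list.

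The lowest ratios were those of Ptprd, a receptor tyrosine phosphatase, at 24.2, 37.4 and 18.6 CPM in photon, proton and control members, against 248.6, 388 and 332 CPM in the other barcodes. Sprr1a, a precursor of the cornified envelope, was at 321, 281 and 483 CPM in members, against 1589, 1363 and 2498 CPM, and Krt13, a keratin of stratified mucosa, at 22.2, 15.2 and 8.60 CPM, against 120, 69.6 and 91.3 CPM. Of 4 squamous markers measured, Sprr1a and Krt13 were lower in all 3 libraries and none was higher in all 3. In control, 1 of the 4, Krtdap, was at least 1.5-fold higher in members. Among secreted defence and acute-phase products, the iron-binding protein gene Ltf was at 13.7, 9.88 and 0.717 CPM in members, against 113, 73.5 and 59.2 CPM, and haptoglobin (Hp) at 11.8, 7.41 and 4.30 CPM, against 90.6, 49.6 and 70.7 CPM. The control value of Ltf in members is 1 count, with a ratio to the other barcodes of 0.0121 and a counting interval of 0.0003 to 0.0675. The ion transport regulator Fxyd2, the cytochrome gene Cyp2f2, the mitochondrial coactivator gene Ppargc1a and the mineralocorticoid receptor gene Nr3c2 were also among the 12 lowest. Of 14 acute-phase and secretory genes, 5 were lower and 3 higher (Msln, Igfbp2 and Apoe) in all 3 libraries. Of 7 chemokines measured, Cxcl2, Cxcl5 and Ppbp were lower in all 3 and none was higher in all 3. In the control library alone, 3 of the 7 were at least 1.5-fold higher in members and 3 lower. Ccl5 had no count in control members, so its control ratio of 2.02 came from the 3 counts set in place of 0.

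Of 13 genes of G2 and M phase that were measured, 13 were higher in members in all 3 libraries. The CPM limit shapes this count, because genes that are high in members pass it more easily. For photon against control, 19 G2 and M phase genes passed the limit in members and 7 in the other barcodes. The 28 genes of that list summed to 1536, 1243 and 1369 CPM in photon, proton and control members, against 866, 646 and 193 CPM in the other barcodes. Of 12 S phase genes, 7 were higher in all 3 libraries and none lower, among them Mcm4, a subunit of the replication helicase, at 104, 60.0 and 59.5 CPM in members and 55.2, 31.1 and 26.6 CPM in the other barcodes. Barcodes in the highest 10% by G2 and M phase share made up 24.5%, 25.7% and 13.3% of photon, proton and control members, against 13.3%, 12.0% and 1.04% of the other barcodes. Yet 39.0%, 40.03% and 53.8% of photon, proton and control members held no UMI of the 28 genes, against 57.8%, 63.7% and 76.0% of the other barcodes. Among the barcodes with no such UMI, an alternative chosen after seeing the data, members were 11.3% of photon, 6.39% of proton and 2.46% of control barcodes. In those barcodes 94 genes were higher and 326 lower in members in all 3 libraries.

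Of 14 genes of cholesterol synthesis and uptake that were measured, 10 were higher in members in all 3 libraries and none was lower. Fdps, which makes farnesyl diphosphate, was at 314, 246 and 211 CPM in photon, proton and control members, against 183, 110 and 50.8 CPM in the other barcodes. Idi1, an isomerase of the mevalonate pathway, was at 205, 130 and 232 CPM in members, against 127, 69.5 and 53.9 CPM. The whole list of 22 genes summed to 1866, 1471 and 1706 CPM in members, against 1185, 844 and 658 CPM.

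The genes nearest in function to the 6 rule genes moved in part. Of the 7 caveola genes measured, Cav2 and Cavin3 were higher in all 3 libraries, with Cavin3, a coat protein, at 204, 129 and 183 CPM in members and 119, 69.1 and 93.8 CPM in the other barcodes. Of 20 actin cytoskeleton genes, Tpm1, Tmsb4x and Tmsb10 were higher in all 3 and none lower, and tropomyosin Tpm1 stood at 1677, 1081 and 1117 CPM in members, against 969, 512 and 622 CPM. Timp3, the sister inhibitor of Timp1, was at 73.6, 69.2 and 143 CPM in members, against 42.1, 37.2 and 39.97 CPM, and was the 1 gene higher in all 3 libraries among 15 measured proteases and inhibitors. The galectin gene Lgals7 was at 628, 363 and 471 CPM in members, against 256, 179 and 85.7 CPM, while Lgals3 was at 312, 259 and 292 CPM, against 410, 348 and 398 CPM. Itga3, the laminin-binding integrin subunit, was at 121, 275 and 113 CPM in members, against 68.5, 131 and 53.03 CPM, and was the 1 of 16 integrin and laminin genes that was higher in all 3. In the pathway around Sostdc1, Wnt10a was higher in all 3 libraries, and Wnt4 and the BMP target gene Id2 were lower, with Id2 at 49.8, 41.7 and 44.4 CPM in members and 110, 107 and 119 CPM in the other barcodes.

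Of 17 p53 target genes measured, Cdkn1a, Eda2r, Trp53inp1 and Btg2 were lower in members in all 3 libraries and none was higher. Cdkn1a, the cell cycle inhibitor p21, was at 187, 128 and 88.1 CPM in photon, proton and control members, against 340, 200 and 173 CPM in the other barcodes. Anxa1, a phospholipid-binding protein of differentiated epithelium, was at 1218, 701 and 1475 CPM in members, against 2681, 1443 and 2975 CPM. Measures of RNA quality also differed: Neat1, a nuclear RNA, was at 266, 436 and 466 CPM in members, against 554, 1173 and 1146 CPM, and the median mitochondrial share was 1.77%, 1.66% and 2.48% in members, against 2.02%, 1.51% and 2.67%. Their part in these differences was not tested.

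**Figure D5:**
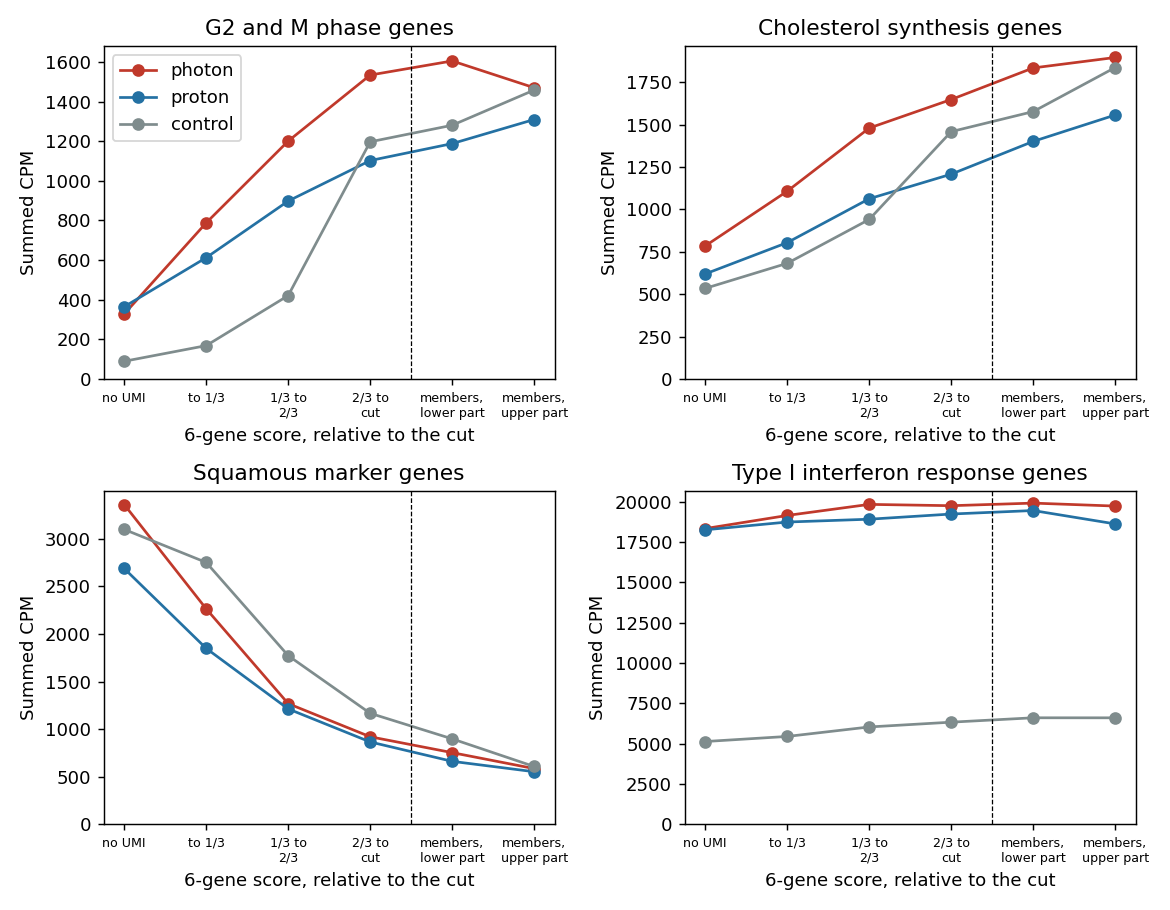
Summed CPM of 4 gene lists in 6 bins of the 6-gene score, from barcodes with no UMI of the 6 genes to the upper part of the members, for the photon, proton and control libraries; the dashed line is the cut. G2 and M phase and cholesterol genes are higher and squamous genes lower in members than in barcodes with no such UMI, and interferon genes differ between libraries far more than between bins.

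These differences followed the score below the cut as well. In barcodes with no UMI of the 6 genes, G2 and M phase genes summed to 329, 365 and 89.9 CPM in photon, proton and control. In the bin just under the cut they summed to 1533, 1102 and 1197 CPM, close to the 1605, 1188 and 1280 CPM of the lower part of the members. Squamous markers summed to 3359, 2688 and 3098 CPM in barcodes with no UMI and to 586, 553 and 608 CPM in the upper part of the members. Depth moved with the bins, with median UMIs of 2835, 2802 and 3023 in the lowest bin and 3562, 3147 and 3981 in the highest, and its part was not tested. Krt14 and Krt17 were higher and Krt15 lower in the upper part of the members than in barcodes with no UMI of the 6 genes. Krt15 was at 869, 311 and 837 CPM in barcodes with no UMI and at 434, 77.5 and 526 CPM in the upper part of the members.

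Photon members and control members were set against each other next, as 1 library each. Of 5396 genes at a mean of at least 25 CPM, 234 (4.34%) were at least 1.5-fold higher and 444 (8.23%) at least 1.5-fold lower in photon members. In the other barcodes 300 of 5732 genes (5.23%) were higher and 385 (6.72%) lower. Scaling by the median of gene ratios gave 318 higher and 294 lower in members, so the excess of lower genes depends on the scaling.

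Interferon-response genes were among those with the highest ratios in photon members, and were similarly high in the other barcodes. Of 26 type I interferon genes measured in members, 25 were higher and 1 lower. Their median log2 ratio was 3.52, beside −0.08 over all genes. In the other barcodes 25 of 26 were higher, with a median of 3.55. Isg15, a ubiquitin-like modifier, was at 1534 CPM in photon members and 123 CPM in control members, and at 1285 and 49.5 CPM in the other photon and control barcodes. Zbp1, a sensor of nucleic acids, was at 135 and 4.30 CPM in photon and control members (31.4-fold, 14.4 to 85.9). The GTPase gene Iigp1 was at 89.8 CPM in photon members with no count in control members. Its ratio was 41.8 when control is set to 3 counts (lower counting limit 33.9). The chemokine gene Ccl5 was at 95.3 CPM in photon members, with a ratio of 44.3 on the same basis (lower counting limit 36.0). Ifi27 was the gene of the list that was lower, at 28.3 CPM in photon and 231 CPM in control members. Antigen presentation by MHC class I followed: 12 of its 13 measured genes were higher in photon members (median log2 ratio 2.31), and 12 of 12 in the other barcodes (2.29). H2-Q7 was at 224 and 5.73 CPM in photon and control members, and its near-identical copies make that count uncertain, as they do for Ifit3 with Ifit3b and for Trim30a.

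The cell cycle and cholesterol genes showed another pattern. Ube2c, which feeds cyclins to degradation, was at 181 CPM in photon and 147 CPM in control members (1.23-fold, 1.06 to 1.43), and at 88.5 and 12.5 CPM in the other photon and control barcodes (7.09-fold, 6.40 to 7.87). Top2a, the topoisomerase of dividing cells, was at 102 and 97.4 CPM in photon and control members (1.04-fold, 0.866 to 1.26), and at 58.2 and 10.8 CPM in the other barcodes (5.41-fold). Cenpf, a kinetochore protein, was at 81.6 and 110 CPM in photon and control members, and at 46.6 and 10.7 CPM in the other barcodes. These 3 genes were among the 6 whose ratio in members lay furthest below the ratio in the other barcodes. Of 15 cholesterol genes measured in members, 1 was higher in photon and none lower (median log2 ratio 0.02), and in the other barcodes 8 of 13 were higher (0.74). No test of these differences exists with 1 library a group.

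Several of the lowest ratios of photon over control members were lower than the same ratio in the other barcodes. Apoc1, an apolipoprotein, was at 26.6 CPM in photon and 79.5 CPM in control members (0.334, 0.262 to 0.427), and at 12.2 and 10.3 CPM in the other photon and control barcodes. Il18r1, the interleukin-18 receptor, was at 24.1 and 76.7 CPM in photon and control members (0.314, 0.245 to 0.404), and at 23.7 and 21.4 CPM in the other barcodes. Aldh3a1, an aldehyde dehydrogenase, was at 88.9 and 254 CPM in photon and control members, and at 163 and 198 CPM in the other barcodes. Mill1, an MHC class I-like gene, was at 15.2 and 81.0 CPM in photon and control members, and at 11.8 and 34.5 CPM in the other barcodes. Of 15 p53 targets measured in members, 3 passed 1.5-fold upward and 1 downward in photon, and the median of the 15 log2 ratios was 0.24. In the other barcodes 7 of 17 were higher and none lower, and the median was 0.51.

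Proton members differed from control members in more genes. Of 5563 genes, 701 (12.6%) were at least 1.5-fold higher and 1045 (18.8%) at least 1.5-fold lower in proton members, beside 754 (12.9%) higher and 915 (15.6%) lower of 5858 genes in the other barcodes. Photon and proton were compared with the same control library, so the ratios share their denominator. Of 26 interferon genes, 24 were higher and 1 lower in proton members (median log2 ratio 2.89), and 25 of 26 were higher in the other barcodes (3.48). Isg15 was at 835 CPM in proton members, against 123 CPM in control members. Ccl5 was at 194 CPM in proton members with no count in control members. Its ratio was 90.2 when control is set to 3 counts (lower counting limit 73.1). Mki67, a marker of cycling cells, was at 76.2 CPM in proton and 75.2 CPM in control members (1.01-fold, 0.799 to 1.29), and at 47.7 and 8.58 CPM in the other proton and control barcodes (5.55-fold).

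Fn1, fibronectin, had the largest excess of the ratio in members over the ratio in the other barcodes, among genes that passed the 25 CPM limit in both. It was at 130 CPM in proton and 15.05 CPM in control members (8.63-fold, 5.56 to 14.1), and at 72.5 and 43.6 CPM in the other proton and control barcodes (1.66-fold, 1.55 to 1.78). Photon members held 35.5 CPM, so that Fn1 was above the other barcodes in proton members and below them in photon and control members. Fn1 stood at 182 CPM in Lgals1-led proton members, which were 58.2% of the proton members, and at 6.78 CPM in Sostdc1-led ones. Cluster 8, led by Fn1, held 6.31% of proton, 1.96% of photon and 0.302% of control members, and its part in the Fn1 values was not tested. The adaptor gene Sorbs2 was at 77.7 and 2.87 CPM in proton and control members, and at 105 and 19.0 CPM in the other barcodes. Chrm3, the muscarinic receptor through which nerves drive saliva flow, was at 112 and 16.5 CPM in proton and control members (6.79-fold, 4.44 to 10.9), and at 264 and 111 CPM in the other barcodes (2.37-fold). Krtdap, a keratinocyte differentiation-associated gene, was at 201 and 133 CPM in proton and control members (1.52-fold), and at 295 and 35.2 CPM in the other barcodes (8.40-fold). Among the 8 lowest ratios of proton over control members were those of Aox3, an aldehyde oxidase (6.35 and 57.3 CPM), Ifi27 (27.5 and 231 CPM), Rassf10 (6.35 and 48.7 CPM) and the glutathione transferase gene Gsta3 (10.9 and 64.5 CPM).

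Proton and photon members were 777 and 1737 barcodes. Of 5455 genes, 1085 (19.9%) were at least 1.5-fold higher and 974 (17.9%) at least 1.5-fold lower in proton than in photon members, and in the other barcodes 1277 of 5796 (22%) were higher and 911 (15.7%) lower. The highest ratios included Lars2, at 251 CPM in proton and 61.6 CPM in photon members, and Gm42418, at 13605 and 4486 CPM, 2 genes whose counts follow ribosomal RNA-like sequence. The other barcodes gave similar values, with Lars2 at 255 and 60.0 CPM and Gm42418 at 13162 and 3729 CPM in proton and photon. The part of this difference in RNA composition in the other differences was not tested. Fn1 was 3.66-fold (3.11 to 4.33) higher in proton than in photon members and 1.38-fold higher in the other barcodes.

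Early-response and endoplasmic reticulum genes were lower in proton than in photon members. Jun, an AP-1 transcription factor subunit, was at 105 CPM in proton and 551 CPM in photon members (0.191, 0.169 to 0.215), and at 168 and 665 CPM in the other barcodes. Fos, its partner, was at 107 and 422 CPM in proton and photon members, and at 94.99 and 363 CPM in the other barcodes. Pdia6, a disulfide isomerase of the endoplasmic reticulum, was at 139 and 558 CPM in members, and at 98.5 and 329 CPM in the other barcodes. Of 14 chaperone and unfolded protein response genes measured in members, 10 were lower in proton and none higher (median log2 ratio −0.73), and in the other barcodes 10 of 13 were lower (−0.83). Fabp4, a fatty acid carrier, was lower in proton than in photon members, at 60.0 and 117 CPM, and not in the other barcodes, at 119 and 106 CPM. Wfdc18 was at 515 and 1061 CPM in proton and photon members, and at 646 and 681 CPM in the other barcodes. Both genes were named by the size of the difference between members and the other barcodes, and the difference was not tested. Wfdc18 was at 1126 and 1946 CPM in Sostdc1-led proton and photon members, and at 362 and 388 CPM in Lgals1-led ones. Sostdc1-led members were 11.8% of proton and 47.7% of photon members, and the part of this mix was not tested.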

How the data were processed

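Counts are UMI counts per gene and barcode, as deposited by the authors in 1 filtered matrix per library. Per the submitters' processing notes they were made with Cell Ranger 7.0.1 on mm10, and per the file headers with Cell Ranger 7.0.0. Barcodes were kept at 2000 UMIs, 500 genes and 20% mitochondrial UMIs. Counts of a gene were summed over the barcodes of a group and divided by the group's total to give CPM, which carries no correction for gene length. Depth is the UMI total per library given above.

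With 1 library per group there is no edgeR or other count model, no p-value and no SD. A gene was called by size: at least 1.5-fold and a mean of at least 25 CPM over the groups compared, in all 3 libraries for members against the other barcodes. A group with no count was set to 3 counts, also in the limit given for a share of 0. Ratios carry exact conditional 95% Poisson intervals and shares exact (Clopper-Pearson) intervals. UMIs of a cell are separate molecules, but both kinds of interval cover counting error only. Clusters came from Leiden (resolution 0.5, 20 neighbours, 30 components, 2000 variable genes) without the 6 genes. On simulated counts for photon against control members (5374 genes), 100% of the genes raised 3-fold were called and 0.464% of the unchanged ones. Of the unchanged genes, 1.22% were called for proton against control and 0.0191% for proton against photon. The simulated counts held Poisson counting error only, with no spread between cells or libraries. The raised genes were drawn well above the 25 CPM limit and moved well past 1.5-fold. The 100% therefore says nothing of genes or changes near these limits. Tools were Python 3.11.15, numpy 2.4.6, scipy 1.17.1, pandas 2.3.3, scanpy 1.11.5 and leidenalg 0.10.2.

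Members and gene lists were chosen with earlier results of these data known. Named were the 6 rule genes, the 12 highest and 12 lowest ratios of members over the other barcodes, the 8 highest and 8 lowest between libraries, the 6 largest differences each way between members and the other barcodes, and up to 4 genes of each list. Genes numbered Gm or ending in Rik may be unnamed. Genes of the Lgals1-led and Sostdc1-led contrast, and Mcm4, Lgals3 and Snai2, were picked after their values were seen. Some genes that this rule names are not reported here.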

Additional observations from a re-analysis of the deposited data

Results flagged for a closer look

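The relation between Vim and Sostdc1 took opposite directions in the irradiated and control libraries. Sostdc1 in barcodes with at least 2 Vim UMIs, over barcodes with none, was 0.822 in photon (counting interval 0.759 to 0.890), 0.749 in proton (0.586 to 0.944) and 2.44 in control (2.01 to 2.94). The difference between libraries was not tested, since each group is 1 library. Few control barcodes held 2 Vim UMIs, 61 of 9620, and barcodes with 2 Vim UMIs were deeper than those with none in every library.

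Barcodes with fewer than 2000 UMIs that passed the gene and mitochondrial limits, left out by the depth filter alone, carried the 6 genes as well. The genes made up 0.0412% of the UMIs of 4150 such photon barcodes and 0.0385% of those of 6017 such proton barcodes, against 0.0158% in 3599 such control barcodes. Lgals1 was at 84.2, 143 and 17.8 CPM there in photon, proton and control, and Sostdc1 at 222, 94.7 and 53.6 CPM.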

How the results depend on the processing

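No paired analysis was possible because each group is 1 library. Doublet removal was not run as an alternative, since Scrublet marked no barcode. Of the shares and gene counts under the alternatives, 99 stayed near the main value and 29 moved. With the highest 5% as members, the shares were 8.32% in photon, 4.42% in proton and 1.72% in control. With at least 3000 UMIs the proton share was 8.99% and the control share 4.07%, and with scores from barcodes thinned to 2000 UMIs the photon share was 17.1% and the proton share 8.63%. Among barcodes without G2 and M phase UMIs, added after seeing the data, shares were 11.3% in photon, 6.39% in proton and 2.46% in control. The order photon, proton, control held under each of these. With the highest 10% chosen within each library, 728 genes were lower in photon than in control members. Scaling by the median of gene ratios gave 192 genes higher in members than in the other barcodes and 294 lower in photon than in control members. With a limit of 5 CPM, 313 genes were higher and 626 lower in members than in the other barcodes, 725 higher and 1234 lower in photon than in control members, 1744 and 1829 in proton over control, and 2222 and 1559 in proton over photon. With a fold of at least 2 these counts were 18 and 92, 100 and 54, 202 and 367, and 223 and 263. Of the ratios of named genes under these settings, 842 stayed within their counting interval, 94 moved and none reversed. A changed fold or CPM limit cannot move a ratio, so the ratios under those settings were among the 842 in advance. Genes named only by the difference between members and the other barcodes were not part of this count. The 6 genes with members chosen by the other 5 are given above. Depth limits the call of single members, at a median of 8 UMIs of the 6 genes.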

Other observations

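A few genes below the 25 CPM limit were higher in members of each library; they were picked after their values were seen. Aqp5, the water channel of salivary acinar cells, was at 28.3, 30.4 and 29.4 CPM in photon, proton and control members, against 10.6, 9.59 and 11.7 CPM in the other barcodes. Of the other 5 acinar markers, Amy1 was at 10.5, 23.7 and 23.6 CPM in photon, proton and control members, against 20.1, 30.7 and 36.5 CPM, and Pip at 9.34, 1.41 and 10.7 CPM, against 3.75, 1.68 and 0.383 CPM. Lpo was below 1 CPM throughout. The acinar transcription factor gene Bhlha15 and the secreted mucin-type gene Smgc had no count in members of any library. Prrx1, a mesenchymal homeobox factor, was at 19.7, 10.2 and 12.9 CPM in photon, proton and control members, against 6.60, 5.69 and 3.54 CPM. Insig1, which holds back cholesterol synthesis, was at 22.04, 21.5 and 16.5 CPM in members, against 10.1, 7.45 and 4.19 CPM.

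Members overlapped the barcodes richest in basal keratin genes by library. Barcodes in the highest 10% by basal keratin share were 26.1% of photon, 0.901% of proton and 18.7% of control members, against 15.2%, 1.42% and 8.96% of the other barcodes. Barcodes in the highest 10% by squamous share were 1.21%, 1.16% and 0.906% of photon, proton and control members, against 10.3%, 8.38% and 13.7% of the other barcodes. By luminal duct share, the highest 10% were 13.2%, 5.28% and 3.32% of photon, proton and control members, against 18.8%, 5.92% and 4.48% of the other barcodes.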
